A study of Mus musculus with 5 samples.

Results

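STAT transcription factors and the SOCS proteins that restrain them were followed at the RNA level in leukocytes of the NOD mouse pancreas. The 9 genes are Stat2, Stat3, Stat4, Stat5a, Stat5b, Stat6, Socs1, Socs3 and Cish, named by family membership, out of 19938 genes with a probe set of their own on the array. The samples came from 5 WT NOD females aged 10 weeks, a strain in which immune cells infiltrate the islets and diabetes develops without any treatment. The mice form 1 group, with no control strain and no other treatment in the labels. CD45+ cells, which comprise all leukocyte types together, were sorted from each pancreas straight after magnetic resonance imaging, and each mouse carries the T2 relaxation time of its scan. From mouse 1 to mouse 5 the T2 values were 35.3, 35.24, 32.77, 30.02 and 28.98 ms. The comparison is between transcript level and T2 over the 5 mice, which is what the submitters set out to relate. The labels do not say whether high or low T2 goes with more inflammation.

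Cytokine receptors without a kinase of their own borrow JAK kinases, which phosphorylate STAT proteins that then dimerise, enter the nucleus and switch on target genes. SOCS proteins and CISH are among those targets and close the loop: they bind the receptor or the JAK and stop the signal. Much of STAT activity is set by phosphorylation, which an RNA array does not see, while the RNA of Socs1, Socs3 and Cish is often read as a trace of recent signalling. In insulitis the pathway carries interferon, IL-2, IL-4, IL-6, IL-12 and IL-21 signals among T cells, B cells and macrophages.

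The DNA at the start of these genes was searched for the known kinds of STAT-binding letters. Stretches with matches are shown here for Socs3, Cish, Socs1 and Stat2. RefSeq windows of build GRCm38.p6, from 250 bases before to 50 after an annotated transcription start, were available for all 9 genes. Paired STATs bind TTCNNNGAA, STAT6 favours TTC and GAA spaced by 4 bases in place of 3, and the complex of interferon signalling that contains STAT2 binds GAAA repeated after 2 bases. The TTC motifs read the same on both strands, and the GAAA repeat was searched on both strands. Capitals mark the matches, all sequences run 5′ to 3′ on the strand of the gene, and positions count from the annotated start, with 1 as the first transcribed base.
Socs3, minus strand, chr11:117969367-117969616, positions -250 to -1: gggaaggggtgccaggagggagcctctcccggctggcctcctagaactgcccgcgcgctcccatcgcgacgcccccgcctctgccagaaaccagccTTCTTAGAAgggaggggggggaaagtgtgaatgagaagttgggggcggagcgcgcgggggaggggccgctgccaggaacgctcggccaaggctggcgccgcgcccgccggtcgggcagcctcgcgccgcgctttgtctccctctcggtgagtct
Cish, plus strand, chr9:107296654-107296683, positions -5 to 25: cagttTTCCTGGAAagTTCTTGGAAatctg
Socs1, minus strand, chr16:10785537-10785786, positions -250 to -1: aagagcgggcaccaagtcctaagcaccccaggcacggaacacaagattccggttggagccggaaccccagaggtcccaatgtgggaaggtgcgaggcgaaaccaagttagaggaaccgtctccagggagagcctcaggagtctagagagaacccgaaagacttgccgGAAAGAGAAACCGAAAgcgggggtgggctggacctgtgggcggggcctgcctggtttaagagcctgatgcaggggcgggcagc
Stat2, plus strand, chr10:128270258-128270337, positions -240 to -161: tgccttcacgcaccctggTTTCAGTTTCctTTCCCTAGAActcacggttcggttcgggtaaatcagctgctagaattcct

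Of the 9 genes, 2 held TTCNNNGAA in a window, Socs3 and Cish, and 9.55% of all 27025 genes with a window did so. Cish had the motif 2 times, at positions 1 to 9 and 12 to 20, and Socs3 had it once, at positions -154 to -146. The motif with a spacing of 4 was found in 1 of the 9, Stat2, at positions -210 to -201, against 8.01% of all genes. The GAAA repeat was found in 3 of the 9, Stat2, Stat4 and Socs1, against 3.99% of all genes. In Socs1 it occurred as GAAAGAGAAA and GAAACCGAAA, which overlap by 4 bases at positions -83 to -68. The Stat3, Stat5a, Stat5b and Stat6 windows held none of the 3 motifs. These are matches of letters, and no binding was measured.

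Transcript levels are given as intensities, the array's brightness on a linear scale after the authors' normalization, and differences as log2. A level can be compared between mice for 1 gene and not between genes, because probe sets differ in how brightly they bind. Of the 9 genes, 8 passed the filter used for testing, a mean log2 intensity of at least 6. Cish did not, with a mean of 4.73, close to the median probe set of the arrays, whose intensity was 23.8 to 24.5. Ptprc, the gene of CD45, read between 1962 and 2357 in the 5 mice. Markers of islet cells had list means of 3.78 to 3.93 in log2 with none past the filter. Markers of acinar cells, the enzyme-making cells of the exocrine pancreas, were present: 4 of the 6 with a probe set of their own passed the filter, with a list mean of 6.70 in mouse 2 to 7.68 in mouse 1, and Ctrb1, chymotrypsinogen, read 182 to 404. The T cell, B cell and macrophage lists were at 8.59 to 9.25, 8.73 to 9.66 and 7.86 to 8.98. In such a mixed sort, fewer cells of a type and less RNA per cell cannot be told apart.

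Each of the 9 STAT and SOCS transcripts followed here varied by less than 1.5-fold across these mice. Between the mouse of lowest and the mouse of highest signal, the ratio was between 1.07 and 1.46 for each of the 9 genes. The SD over the mice was 0.038 to 0.21 in log2 for the 8 tested genes, with a median of 0.12 against 0.105 for all tested genes. None of the 8 tested genes passed limma's test of the slope on T2 at an adjusted p under 0.05, as 0% of the 6603 genes tested did, and 0 of 8 reached an unadjusted p under 0.05, against 5.29% of all genes. Slopes were below 0 in 4 of the 8, all of them STAT genes, against 67.9% of all genes. After renewed quantile normalization of the arrays these shares were 3 of 8 and 43.9%. The median slope of the 8 genes was -0.0045 log2 per ms and that of all tested genes -0.0074.

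**Figure D1:**
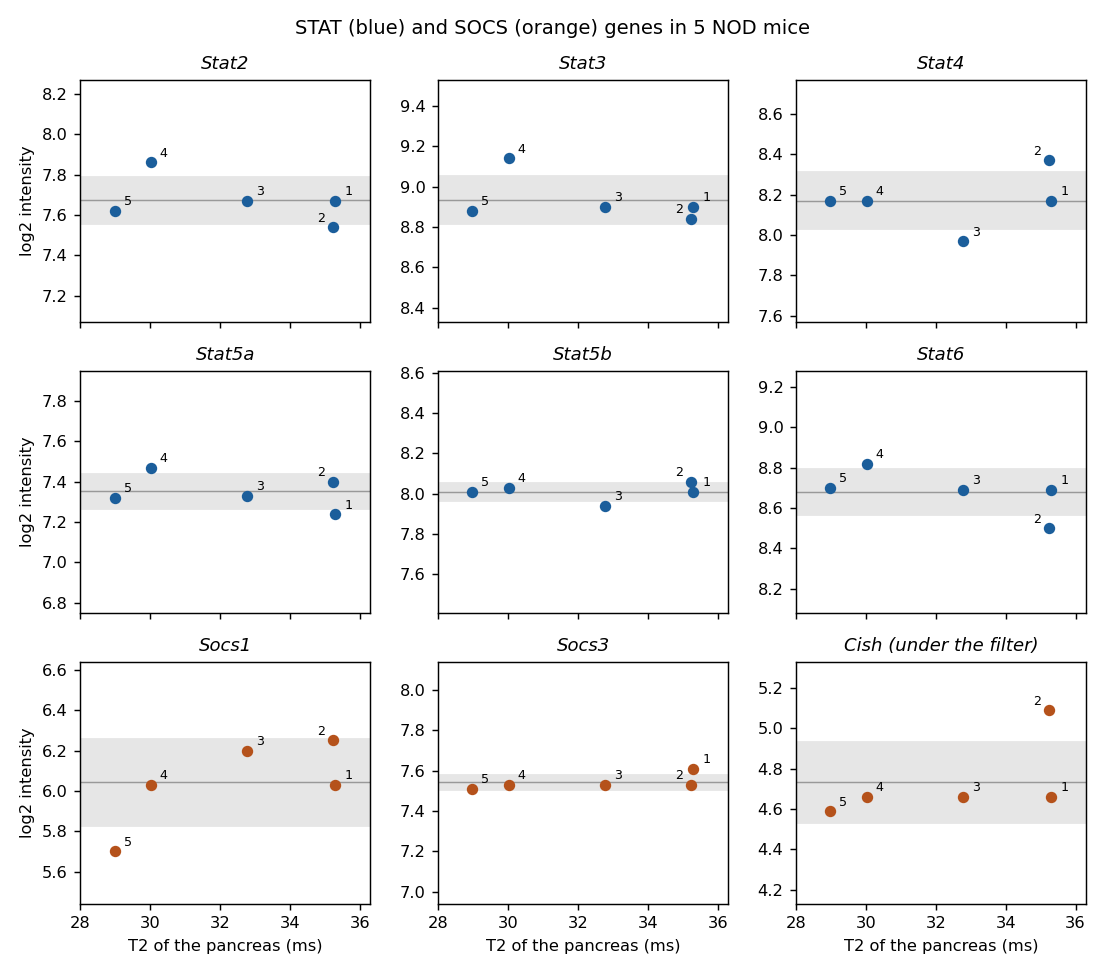
Log2 intensity of each gene (vertical axis, the same span of 1.2 log2 units in every panel) against the T2 of the pancreas in ms (horizontal axis), with 1 numbered point per mouse; the line is the mean of the 5 mice and the band is 1 SD on either side. Points lie close to the line in most panels, with mouse 4 highest for Stat2, Stat3, Stat5a and Stat6, and mouse 2 highest for Stat4, Stat5b, Socs1 and Cish.

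Stat3, the STAT of IL-6, IL-10 and IL-21 signals, read 479, 460, 479, 566 and 470 in mice 1 to 5. Mouse 4 stood above the other mice, which were within a narrow band. The mean was 8.93 ± 0.12 in log2 (SD, n = 5), and the slope on T2 was -0.019 ± 0.019 log2 per ms (adjusted p = 0.839 by limma). Over the T2 range of 6.32 ms this is a level at the highest T2 of 0.919-fold that at the lowest, with a 95% interval of 0.73 to 1.16. Folds below are given the same way.

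Stat2, the partner of IRF9 in type I interferon signalling, read 203, 186, 203, 233 and 196 in mice 1 to 5. Its pattern was that of Stat3, with mouse 4 highest and mouse 2 lowest. The slope was -0.019 ± 0.019 log2 per ms and amounted to 0.918-fold over the T2 range (0.729 to 1.16 at 95%; adjusted p = 0.839 by limma).

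Stat6, through which IL-4 and IL-13 drive alternative activation of macrophages and class switching in B cells, read 412, 362, 412, 451 and 415 in mice 1 to 5. Here too mouse 4 was highest and mouse 2 lowest. Its slope, -0.026 ± 0.015, was the most negative of the 9 genes, or 0.894-fold over the T2 range (0.739 to 1.08 at 95%; adjusted p = 0.828 by limma).

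Stat2, Stat3 and Stat6 thus shared their highest and their lowest mouse. Stat2 and Stat3 also had the other mice in the same order, while in Stat6 mouse 5 lay just above mice 1 and 3. The root mean square difference between their profiles, each centred on its own mean, was 0.026 log2 for Stat2 with Stat3, the smallest of the 36 pairs among the 9 genes. It was 0.046 for Stat2 with Stat6 and 0.066 for Stat3 with Stat6, while Stat6 with Cish, at 0.27, was the least alike pair. Without mouse 4 the slopes of Stat2, Stat3 and Stat6 were -0.0027, -0.00066 and -0.017. For all 3 genes the values of mice 1 and 3 were equal in the deposited table.

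Stat4, the STAT of IL-12 signalling in T helper 1 and NK cells and a gene tied to autoimmune disease in human genetics, read 288, 331, 251, 288 and 288 in mice 1 to 5. Mouse 2 was highest, mouse 3 lowest and the other mice had the same deposited value. The slope was 0.015 ± 0.024 and amounted to 1.07-fold over the T2 range (0.797 to 1.43 at 95%; adjusted p = 0.918 by limma). Without mouse 2 the slope was -0.008.

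Stat5a and Stat5b, neighbouring and closely related genes that serve IL-2, IL-7 and GM-CSF, had different orders over the mice. Stat5a read 151, 169, 161, 177 and 159 in mice 1 to 5, highest in mouse 4 and lowest in mouse 1. Stat5b read 259, 266, 245, 262 and 259 in the same mice, highest in mouse 2 and lowest in mouse 3. Stat5b spanned a ratio of 1.09 between mice and had an SD of 0.044 in log2. Its slope was 0.0016 ± 0.0084 and amounted to 1.01-fold over the T2 range (0.907 to 1.12 at 95%; adjusted p = 1 by limma). For Stat5a the slope was -0.011 ± 0.015 and amounted to 0.955-fold over the T2 range (0.796 to 1.15 at 95%; adjusted p = 0.891 by limma), and the slope was 0.0015 when the arrays were quantile normalized again and 0.0022 without mouse 1. For Stat5b it was -0.0044 without mouse 2.

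Neither of the tested feedback genes passed the adjusted threshold. Socs1, the inhibitor of JAK kinases that restrains interferon gamma signalling, read 65.3, 75.9, 73.7, 65.3 and 52.2 in mice 1 to 5. Mouse 5, the mouse of lowest T2, was lowest and mouse 2 highest. Socs1 had the largest SD of the 9 genes, 0.21 in log2, and the steepest slope, 0.053 ± 0.026 log2 per ms. The fold of highest over lowest T2 was 1.26, with a 95% interval of 0.912 to 1.74 (adjusted p = 0.828 by limma). Without mouse 5 the slope was 0.017. With a mean log2 of 6.04 it lay just above the filter, and in mouse 5, at 5.70, under it.

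Socs3, the inhibitor that binds gp130 and restrains IL-6 signalling, read 196 in mouse 1, 185 in mice 2, 3 and 4, and 182 in mouse 5. It spanned a ratio of 1.07, the narrowest of the 9 genes, and its SD was 0.038 in log2. The slope was 0.0088 ± 0.0061 and amounted to 1.04-fold over the T2 range (0.964 to 1.12 at 95%; adjusted p = 0.828 by limma). A second probe set annotated to Socs3 was dimmer and ordered the mice differently. It read 65.8, 60.5, 65.8, 75.3 and 65.8 in mice 1 to 5, highest in mouse 4, with a slope of -0.024 ± 0.016. The mean of both sets gave a slope of -0.0075, so the sign for Socs3 depends on the probe set.

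Cish, induced through STAT5 by IL-2 and other cytokines, read 25.3 in mouse 1, 34.0 in mouse 2, 25.3 in mice 3 and 4, and 24 in mouse 5. Mouse 2 was alone above the rest, by a ratio of 1.42 over the lowest. The slope, taken from the fit over all 19938 genes because Cish lay under the filter, was 0.042 ± 0.029, with no call attached. It was 0.0082 without mouse 2. At this signal a level transcript and a change hidden by background cannot be told apart.

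**Figure D2:**
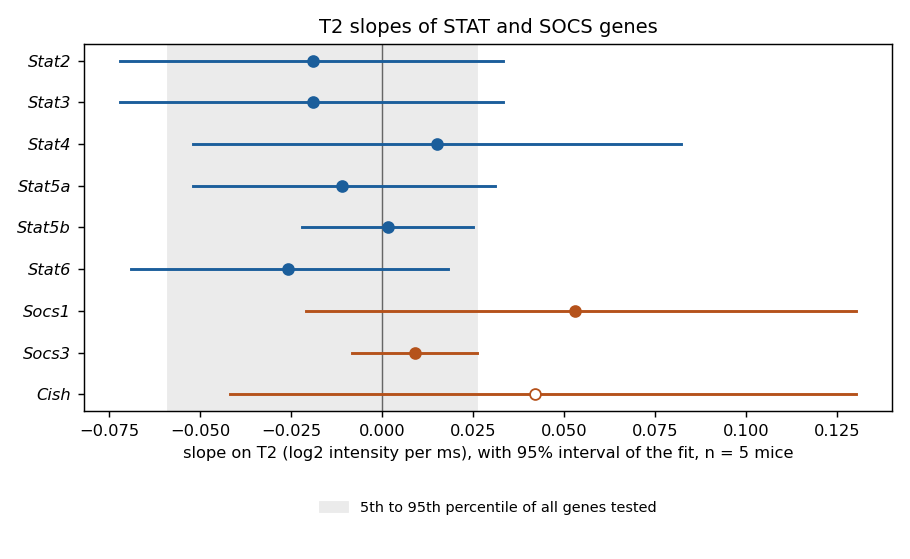
Slope of log2 intensity on T2 in log2 per ms (horizontal axis) for each gene (vertical axis), with the 95% interval of the moderated fit over 5 mice; blue is STAT, orange SOCS, the open circle is Cish, which lies under the filter, and the grey band spans the 5th to 95th percentile of all tested genes, -0.059 to 0.026. Every interval includes 0, and those of Stat5b and Socs3 are the narrowest.

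The intervals bound how much the signal of each probe set could have moved with T2. For Stat5b the interval of the fold between the extremes of T2 reached 1.12 upward and 0.907 downward. For the brighter Socs3 probe set it reached 1.12 and 0.964, but this is no bound for the gene, since the slope of the dimmer set, -0.024, lay outside the interval of the brighter one, -0.0084 to 0.026 log2 per ms. For Socs1 it reached 1.74 and for Stat4 1.43. These bounds rest on 3 residual degrees of freedom per gene, with a variance moderated over all genes in the fit. They also rest on values that were often equal on several arrays. Among the 8 tested genes 2, Stat4 and Socs3, had the same value on 3 or more arrays, as did 38.2% of all tested genes, and so did Cish. Equal values can shrink the residual spread and with it the interval. They did not always do so: Stat4 had the widest interval of the STAT genes, -0.052 to 0.082 log2 per ms.

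The highest values fell mostly in mice 2 and 4, while the lowest were spread over more mice. Mouse 4 alone was highest for 4 of the 8 tested genes, Stat2, Stat3, Stat5a and Stat6, and for 18% of all tested genes. Mouse 2 alone was highest for 3 of the 8, Stat4, Stat5b and Socs1, against 12.3% of all, and it was also highest for Cish. Mouse 2 alone was lowest for Stat2, Stat3 and Stat6, against 23.6% of all. Mice 1 and 2 had nearly the same T2, yet they differed in Stat4 by 288 against 331, in Stat6 by 412 against 362 and in Cish by 25.3 against 34.0.

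Cell type markers moved between the same mice. The T cell list, 7 of 8 markers with a probe set of their own and all 7 past the filter, was highest in mouse 2, at a mean log2 of 9.25 against 8.59 to 8.89 in the others, and the B cell list, 6 of 7 markers, was lowest there, at 8.73 against 8.92 to 9.66. The NK cell list, with 4 of its 6 markers past the filter, was also highest in mouse 2, at 7.20. Its markers did not all do so: Prf1 and Nkg7 were highest in mouse 2, Eomes in mouse 4 and Gzma in mouse 5. The macrophage list, 8 of 9 markers past the filter, was at 7.86 in mice 1 and 2 and at 8.96 and 8.98 in mice 4 and 5. Neutrophil markers were lowest in mouse 4, at 6.18, and highest in mouse 3, at 8.85, over 3 of 7 markers. Genes of handling stress, 12 genes, were highest in mouse 5, at 8.67 against 7.87 to 8.21. Socs1 was lowest in that mouse, as were Cish, near background, and the brighter Socs3 probe set, by 182 against 185. The dimmer Socs3 set was lowest in mouse 2, at 60.5, and read 65.8 in mouse 5. How many of all tested genes were lowest in mouse 5 was not counted. These lows thus have no share over all genes beside them and are not read as a result. The part of cell makeup and handling in the values of the STAT and SOCS genes was not tested.

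**Figure D3:**
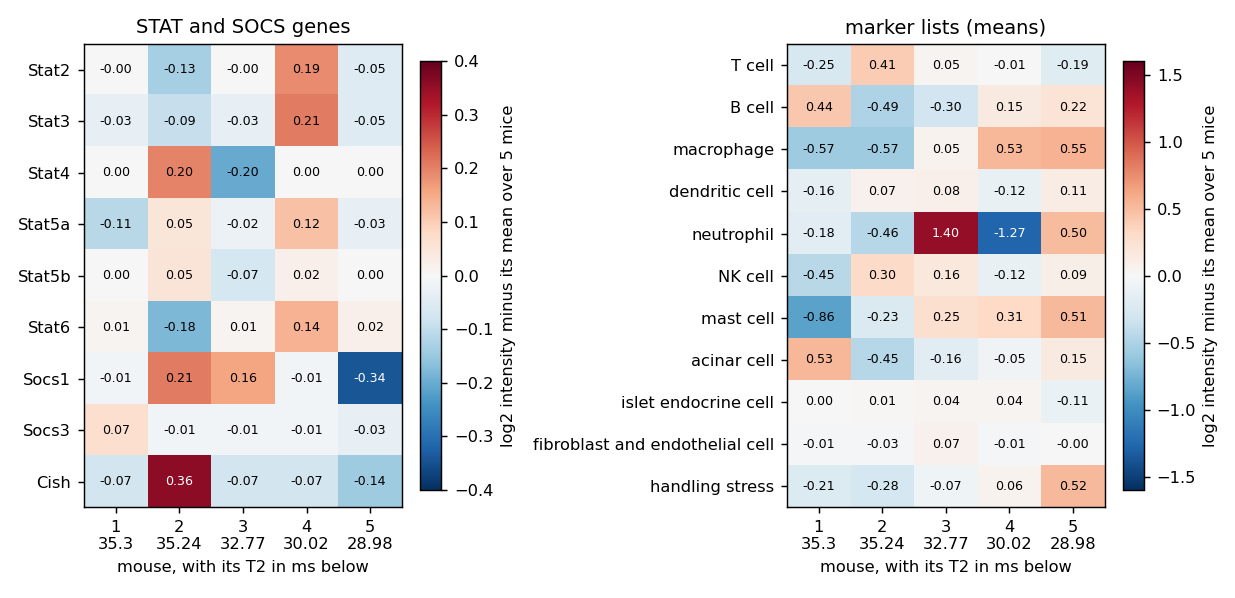
Log2 intensity minus its mean over the 5 mice for each STAT and SOCS gene (left, colour scale to 0.4) and for the mean of each marker list (right, colour scale to 1.6), with mice in columns from high to low T2. Stat2, Stat3 and Stat6 are above their means in mouse 4 and below in mouse 2, where Cish, Stat4, Socs1 and the T cell list are above theirs; the right scale is 4 times wider.

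The genes whose profiles were nearest to the most variable ones were found among all tested genes by the root mean square difference of centred log2 values over the 5 mice. For Socs1 they were Mir320, a microRNA gene, at 0.031, Mettl23, a methyltransferase, at 0.042, and H4f16, a histone H4 gene, at 0.044. For Cish they were Mthfd2, a mitochondrial enzyme of folate metabolism, at 0.014, Foxp3, which defines regulatory T cells, at 0.037, and Eif1ad at 0.048. The Cish profile is 3 equal values, 1 high and 1 slightly low array at a signal near background, so closeness to it over 5 points among 6603 genes carries little information.

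The rest of the pathway was read from 10 lists of 108 distinct genes, of which 104 had their own probe set and 58 were past the filter. None of the 58 passed limma's adjusted threshold and 0 reached an unadjusted p under 0.05, against the 5.29% of all tested genes given above. Of their slopes 38 were negative and 19 positive, with a median of -0.0066. Over all tested genes 67.9% of slopes were negative, with a median of -0.0074. After renewed quantile normalization 43.9% of all genes had a negative slope. The counts of the single lists below stand beside the same shares.

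The 19 cytokine ligands searched were all under the filter. Il6, the main driver of STAT3, read 4.66 to 4.85 and Ifng, the interferon of T helper 1 and NK cells, 16.8 to 18.8. Il2 read 6.65 to 9.60, Il4 10.5 to 12.3 and Il21 8.48 to 14.0. The brightest of the list was Ebi3, a subunit of IL-27, at 50.9 to 67. Il6, Ifng, Il2, Il4 and Il21 lay below the median intensity of the arrays. No detection call was made, so whether these ligands changed cannot be told from these values.

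Receptor chains were better measured. In the list of receptors built on the common gamma chain or the IL-4 receptor 6 of 9 genes were tested, 4 with negative and 2 with positive slopes. Il9r, the IL-9 receptor chain, read 156, 123, 160, 145 and 222 in mice 1 to 5, highest in mouse 5, with a slope of -0.072 ± 0.041 (limma adjusted p = 0.828). Without mouse 5 the slope was -0.017. Il4ra, the receptor upstream of Stat6, read 378 to 402 with a slope of -0.0064 ± 0.0067, and 0.0054 after renewed quantile normalization. Il2ra, the high-affinity IL-2 receptor chain, lay under the filter at 23.8 to 26.7.

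Among receptors of the gp130, IL-10, IL-12 and IL-23 groups 6 of 10 genes were tested, 4 negative and 2 positive. Il10rb, a chain shared by the IL-10 and interferon lambda receptors, read 290, 251, 293, 318 and 314 in mice 1 to 5, lower in mouse 2 than elsewhere. Its slope of -0.038 ± 0.014 had the largest moderated t of the 58 genes (adjusted p = 0.828 by limma). Lifr, the receptor of leukaemia inhibitory factor, read 79.3 in mouse 2 and 117 to 133 in the others, with a slope of -0.064 ± 0.037, or -0.020 without mouse 2. Il12rb2, the inducible IL-12 receptor chain upstream of Stat4, and Il23r lay under the filter, at 19.8 and 7.53 on every array.

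All 5 tested genes of the beta-common and colony-stimulating receptor list had negative slopes, with a median of -0.028, and none passed; 67.9% of all tested genes had a negative slope, and 43.9% after renewed quantile normalization. Csf2rb, the shared beta chain of the IL-3, IL-5 and GM-CSF receptors, read 215, 173, 256, 224 and 248 in mice 1 to 5, and its slope was -0.049 ± 0.030 (limma adjusted p = 0.828), or -0.018 without mouse 2. Il3ra, the IL-3 receptor chain, spanned only 72.8 to 80.8. Interferon receptors and their partners were evenly divided, with 3 negative and 3 positive slopes. Irf9, which joins STAT2 on DNA, read 120, 144, 124, 124 and 114 in mice 1 to 5, highest in mouse 2, with a slope of 0.026 ± 0.018, and Ifnar2, a chain of the type I interferon receptor, had a slope of -0.018 ± 0.011.

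Slopes of the tested JAK kinases and the other tested negative regulators lay between -0.026 and 0.0086. Jak1 read 1220 to 1460 with a slope of -0.010 ± 0.016, and Tyk2, the kinase of the interferon and IL-12 receptors, read 96.7 in mouse 2 and 108 in the other mice. Of the 13 genes for other SOCS members, PIAS proteins and phosphatases 10 were tested, with 7 negative slopes, 2 positive and 1 of 0, between -0.026 and 0.0025. Socs2, Socs7 and Pias3 lay under the filter and have no call. In the fit over all genes Socs2, at 28.6 to 35.2, had a slope of 0.034 ± 0.011. The slope of Socs7 was -0.037 ± 0.016 and that of Pias3 0.013 ± 0.028. Ptpn11, the phosphatase SHP2, had a slope of -0.024 ± 0.012 (limma adjusted p = 0.828), and Socs6 read 71.5 in mouse 2 and 89.3 to 89.6 in the others. Socs4, a less studied member of the family, read 108, 85.4, 69.3, 93.7 and 99.9 in mice 1 to 5, a wider span than that of Socs1, with a slope of -0.0068.

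Target genes of the STATs gave no call either. Among STAT3 and STAT5 targets 12 of 13 were tested, 7 negative and 5 positive. Myc, the growth regulator, read 224 to 251 with a slope of -0.014 ± 0.0083, and Batf, a factor of T cell differentiation, 68.7 to 73.1 with a slope of 0.0085 ± 0.0050. The STAT4 and STAT6 targets had 7 of 14 genes tested, 5 negative and 2 positive. Retnla, a STAT6 target and marker of alternatively activated macrophages, had the steepest slope of the 7. It read 207, 111, 239, 207 and 375 in mice 1 to 5, lowest in mouse 2 and highest in mouse 5. Its slope was -0.16 ± 0.074, a fold of 2.02 toward low T2 with a 95% interval of 0.806 to 5.04 (limma adjusted p = 0.828). It was -0.090 without mouse 2 and -0.098 without mouse 5. Stat6 itself was also lowest in mouse 2, but highest in mouse 4 and not in mouse 5. Among the 7 genes under the filter, Chil3, another marker of such macrophages, read 82.9, 34.9, 161, 25.4 and 68.9 in mice 1 to 5, a wider span than that of Retnla, with a slope of 0.057 ± 0.19 in the fit over all genes. Ccl24, a chemokine of eosinophils, read 35.5, 36.5, 53.4, 54.9 and 75.3, with a slope of -0.15 ± 0.026 in that fit. The genes of the list thus did not run one way with T2, and no call is attached to those under the filter. Il18rap, an IL-18 receptor chain induced through STAT4, read 75.7 to 110 with a slope of -0.042 ± 0.029. Its highest value was in mouse 5, and without that mouse the slope was -0.0013.

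Of the 13 interferon targets that STAT2 serves 3 were tested, 1 negative and 2 positive. Irf7, which amplifies type I interferon responses, read 135, 151, 146, 147 and 126 in mice 1 to 5, with a slope of 0.016 ± 0.017, and Bst2, an antiviral membrane protein, read 99.5 to 122 with -0.018 ± 0.019. Ifit1 at 27.9 to 30.3 and Rsad2 at 20.6 to 21.7 lay under the filter in all mice. Usp18, which restrains the type I interferon receptor, was also under it on average, at 46.1, 62.4, 44.7, 46.1 and 28.7 in mice 1 to 5. It was highest in mouse 2 and lowest in mouse 5, as Socs1 was, with a slope of 0.11 ± 0.047 in the fit over all genes and no call. Of the other targets under the filter, Ifit2 had the same extremes. Mx1 was highest in mouse 5, at 23.8 against 18.7 to 19, and Oas1a was highest in mouse 1 and lowest in mouse 4. Xaf1 and Cmpk2 read the same on every array.

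**Figure D4:**
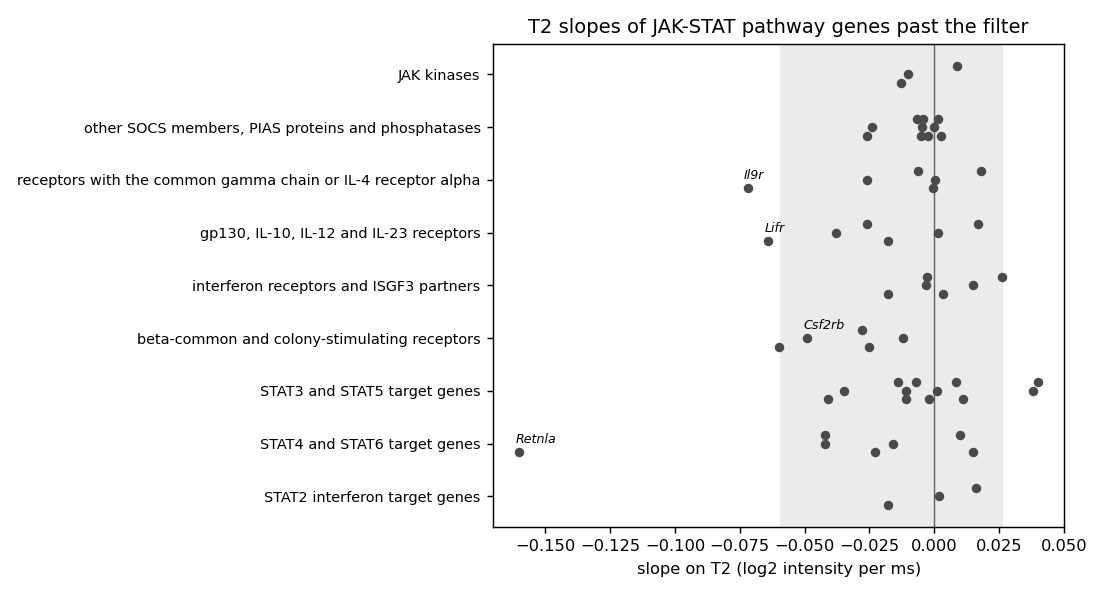
Slope on T2 in log2 per ms (horizontal axis) of each tested gene of the 9 pathway lists with tested genes (vertical axis; points are offset for visibility), with the 5th to 95th percentile of all tested genes in grey. Most points lie within the grey band of -0.059 to 0.026, and Retnla, at -0.16, is farthest from 0; no point passed the adjusted threshold.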

How the data were processed

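The deposited values are intensities per probe set, on a linear scale. Per the submitters' processing notes the authors ran RMA with Affymetrix Power Tools. No version is named, and the genome build is likewise not given in the sources used here. The RMA method subtracts background, quantile normalizes and summarizes probes by median polish. Intensities ran from 2.87 to 19435. They were taken to log2, and each gene was read from its single-symbol probe set of highest mean (GEO's platform annotation: 21789 of 35556 probe sets with 1 symbol, 1621 with several, 12146 unnamed here; RefSeq, GRCm38.p6, changed 0 symbols). The 6603 of 19938 genes with a mean log2 of at least 6 were fitted against T2 in limma 3.58.1 (lmFit, eBayes; R 4.3.3), two-sided, with Benjamini-Hochberg adjustment over all of them. The fit was checked on simulated data. The labels give 1 array per mouse and no date or batch, so no batch could be tested; T2 follows the sample numbers, so any order of handling and T2 cannot be told apart. The number of arrays limits the precision. The p-values set each slope against the residual spread between these mice, moderated over all genes in the fit.

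Members, lists and tests were chosen with earlier results of these data known. Named pathway genes are the 2 tested genes of each list with the largest absolute moderated t; other genes named were chosen after their values were seen. Nearest profiles are the 3 closest tested genes to each of the 2 members of largest SD. Alternatives were other filters, normalizations, probe-set summaries, T2 ranks, variance models, array weights, removal of genes with equal values on 3 or more arrays, a threshold of 0.10 and each mouse left out.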

Additional observations from a re-analysis of the deposited data

Results flagged for a closer look

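In 27 genes, the 9 STAT and SOCS genes and 18 pathway genes, the gap between the extreme mouse and its nearest neighbour was set against the whole range in log2, and 7 genes exceeded the critical share of 0.71 for 5 samples. About 1 in 20 would do so by chance. Of the 7 genes, 6 had the same value on 3 or more arrays, which enlarges such a share. Stat3 stood apart in mouse 4, at 566 against 460 to 479, with a gap of 0.801 of its range. Socs3 stood apart in mouse 1, at 196 against 182 to 185 (0.777), and Cish in mouse 2, at 34.0 against 24 to 25.3 (0.858). Mouse 2 was the low one for Tyk2, at 96.7 against 108 on every other array (1), for Socs6, at 71.5 against 89.3 to 89.6 (0.988), and for Lifr, at 79.3 against 117 to 133 (0.762). Il4ra was highest in mouse 4, at 402 against 378 to 380 (0.946).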

How the results depend on the processing

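None of the STAT, SOCS or pathway genes passed the threshold under any alternative that was run. Of all genes tested 0 passed in the main analysis, 3 with a filter of 7, 4 after renewed quantile normalization, 4 with array weights, 3 at a threshold of 0.10 and 35 without genes of equal values, and 0 without each mouse in turn. The slope of Stat5a turned to 0.0015 after renewed quantile normalization, that of Il4ra to 0.0054, and that of Socs3 to -0.0075 with the mean of its probe sets. Leaving out each mouse in turn gave slopes of -0.027 to 0.0022 for Stat5a, -0.008 to 0.027 for Stat4, -0.0044 to 0.0044 for Stat5b, 0.0082 to 0.071 for Cish, -0.047 to 0.00057 for Socs6 and -0.0079 to 0.032 for Irf7. The causes of these changes were not tested. Each of the 9 STAT and SOCS slopes and the 18 named pathway slopes, none of them called, moved by over 1.5 times or changed sign without at least 1 of the mice. Stat2, Stat3 and Stat6 kept negative slopes and Socs1 a positive one in each alternative in which they could be fitted, with ranges without each mouse of -0.047 to -0.0027, -0.048 to -0.00066, -0.042 to -0.010 and 0.017 to 0.077. Renewed quantile normalization moved the share of negative slopes over all genes from 67.9% to 43.9%. It left 3 of the 8 tested STAT and SOCS genes with a negative slope, against 4. No paired analysis was possible because there is 1 group. Signal over background limits Cish and the cytokine genes.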
